A study of Mus musculus with 53 samples.

Results

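Potassium channel genes were taken as every row of the expression table whose symbol starts with Kcn, which gave 65 of 12372 genes. Of these, 64 encode channel subunits or their partner proteins, and the other is Kcnq1ot1, an antisense RNA of the Kcnq1 locus. By role they comprised 25 voltage-gated pore subunits, 7 silent voltage-gated subunits that form channels only together with a Kv2 pore subunit, 8 auxiliary subunits, 6 calcium- or sodium-activated pore subunits, 9 inward rectifiers and 9 two-pore leak channels. A further 30 protein-coding Kcn genes of the RefSeq annotation were not analysed here.

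RNA had been sequenced from brainstem, cerebellum, cortex and striatum of 14 male mice that were 74 to 77 weeks old and had not been treated. The 8 wild-type mice were C57BL/6 and the 6 SCA3 mice were MJD84.2, a model of spinocerebellar ataxia type 3. MJD84.2 mice carry the whole human ATXN3 gene, its CAG repeat expanded, under its own human promoter, which is active throughout the body, beside their own Atxn3 genes. Brainstem gave 8 wild-type and 6 SCA3 libraries, cerebellum and cortex 7 and 6 each, and striatum 8 and 5, with 1 library per mouse and region.

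Potassium channels let potassium ions leave or enter the cell along their gradient and so set the resting potential and end the action potential. Pore subunits assemble as tetramers, or as dimers in the two-pore family, and auxiliary subunits such as the Kv beta proteins and the KChIP proteins change their gating and transport to the membrane. Neurons combine many of these subunits: Kv3 channels allow fast firing, Kv7 channels carry the M current, and Kv4 channels with KChIP proteins carry the A-type current of dendrites. Glia use others, with Kir4.1 (Kcnj10) and Kir5.1 (Kcnj16) in astrocytes and oligodendrocytes and the two-pore channel THIK-1 (Kcnk13) in microglia.

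The libraries held 31.7 to 76.7 M counts (M for mega), of which potassium channel genes took 0.48% to 0.769%. Values are CPM, counts relative to the TMM-scaled library size, and, wherever genes are compared with each other, CPM per kb of exon. RNA integrity numbers (RIN) ran from 5.7 to 9, and in brainstem they were 6.3 to 7.6 in wild-type and 7.4 to 8 in SCA3 libraries. The mouse Atxn3 row, which does not measure the human transgene by itself, lay at 40.1 to 53.7 CPM in wild-type and 54.3 to 64.8 CPM in SCA3 striatum, while the genotypes overlapped in the other regions. Summed markers of cerebellar granule cells (4 genes) were 2107 to 3333 CPM in wild-type cerebellum and at most 153 in the other wild-type regions. Those of cortical glutamatergic neurons (4 genes) overlapped between wild-type cortex, at 438 to 1840.0, striatum, at 69.9 to 721, and cerebellum, at 344 to 567. Those of striatal projection neurons (10 genes) were 840 to 3607 in wild-type cortex, which overlapped their range in wild-type striatum. The summed CPM of 10 striatal projection neuron markers was 2482 to 10484 in wild-type and 6423 to 9557 in SCA3 striatum, with medians of 5213 and 9044, and each marker had a higher estimate in SCA3 striatum without passing the test (median log2 fold change 0.45). Wild-type mice 7267058 and 7267059 held 1337 and 2268 CPM of 9 thalamic markers where the other striatal libraries held 110 to 374. Of these thalamic markers 6 were called lower in SCA3 striatum (median log2 fold change -1.56), and 1 without those libraries, where 7.54% and 2.34% of all genes were called. The main genotype results in striatum are also given without those libraries, while the wild-type regional values and tests include them.

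Promoters are shown for 4 genes that stand for the patterns described in what follows: Kcnk13, which was lower in SCA3 mice, Kcnj4 and Kcnh4, which were high in cortex and striatum, and Kcng4, which was high in cerebellum and brainstem. The 250 bases before a transcript start are from RefSeq on GRCm38.p6, written 5′ to 3′ on the strand of the gene, and capitals mark the GC box GGGCGG on either strand. RefSeq places the outermost start of Kcnk13, Kcnj4 and Kcnh4 further upstream, so that their windows lie inside the annotated genes.
Kcnk13, chr12:99964249-99964498, plus strand: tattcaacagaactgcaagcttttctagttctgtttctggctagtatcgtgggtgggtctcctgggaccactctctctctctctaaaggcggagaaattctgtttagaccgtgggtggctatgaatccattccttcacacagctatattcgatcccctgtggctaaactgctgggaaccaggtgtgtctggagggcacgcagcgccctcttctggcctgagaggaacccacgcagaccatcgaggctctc
Kcnj4, chr15:79505242-79505491, minus strand: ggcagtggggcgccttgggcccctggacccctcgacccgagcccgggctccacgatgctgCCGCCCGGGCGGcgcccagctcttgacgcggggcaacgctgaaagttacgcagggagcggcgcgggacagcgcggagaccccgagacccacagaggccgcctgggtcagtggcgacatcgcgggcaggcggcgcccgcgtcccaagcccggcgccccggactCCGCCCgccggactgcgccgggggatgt
Kcnh4, chr11:100759779-100760028, minus strand: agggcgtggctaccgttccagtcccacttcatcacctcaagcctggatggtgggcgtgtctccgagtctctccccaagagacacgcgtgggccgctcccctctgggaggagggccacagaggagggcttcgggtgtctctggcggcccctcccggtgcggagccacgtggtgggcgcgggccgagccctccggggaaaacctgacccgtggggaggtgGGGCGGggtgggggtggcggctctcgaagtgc
Kcng4, chr8:119635681-119635930, minus strand: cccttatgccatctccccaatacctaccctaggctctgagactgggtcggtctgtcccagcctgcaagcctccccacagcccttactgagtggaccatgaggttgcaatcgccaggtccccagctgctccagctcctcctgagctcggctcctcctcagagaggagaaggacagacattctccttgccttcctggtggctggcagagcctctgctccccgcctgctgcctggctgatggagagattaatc
The Kcnj4 window held 3 GC boxes and 35 CpG dinucleotides, and that of Kcnh4 held 1 GC box and 20 CpG. The windows of Kcnk13 and Kcng4 held no GC box and 8 and 4 CpG. A promoter entry was found for 46 of the 65 genes (69 entries), and 44.9% of these held a GC box against 32.7% of all 32851 promoters. The TATA box TATAAA was in 2.9% against 12.4%, the E-box CANNTG in 66.7% against 66.2%, the cAMP response element TGACGTCA in 0 of 69 against 1.55%, and TGACG, which is part of that element, in 13% against 17.8%, each searched on both strands.

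In wild-type mice, potassium channel genes differed widely between brain regions. The region with the highest mean level exceeded the lowest by a median of 3.43-fold over the 65 genes, against 1.498-fold over all genes of the table, and by more than 4-fold for 28 of them (43.1% against 8.3%). Cerebellum was the lowest region for 32 of 65 genes (49.2% against 34.1% of all genes). The summed level of the 64 subunits was nonetheless close in all regions, at 1043 ± 106 CPM per kb in brainstem (SD, n = 8), 1073 ± 97.9 in cerebellum (n = 7), 1032 ± 191 in cortex (n = 7) and 982 ± 126 in striatum (n = 8). All regional values that follow are wild-type means ± SD with these n.

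**Figure D1:**
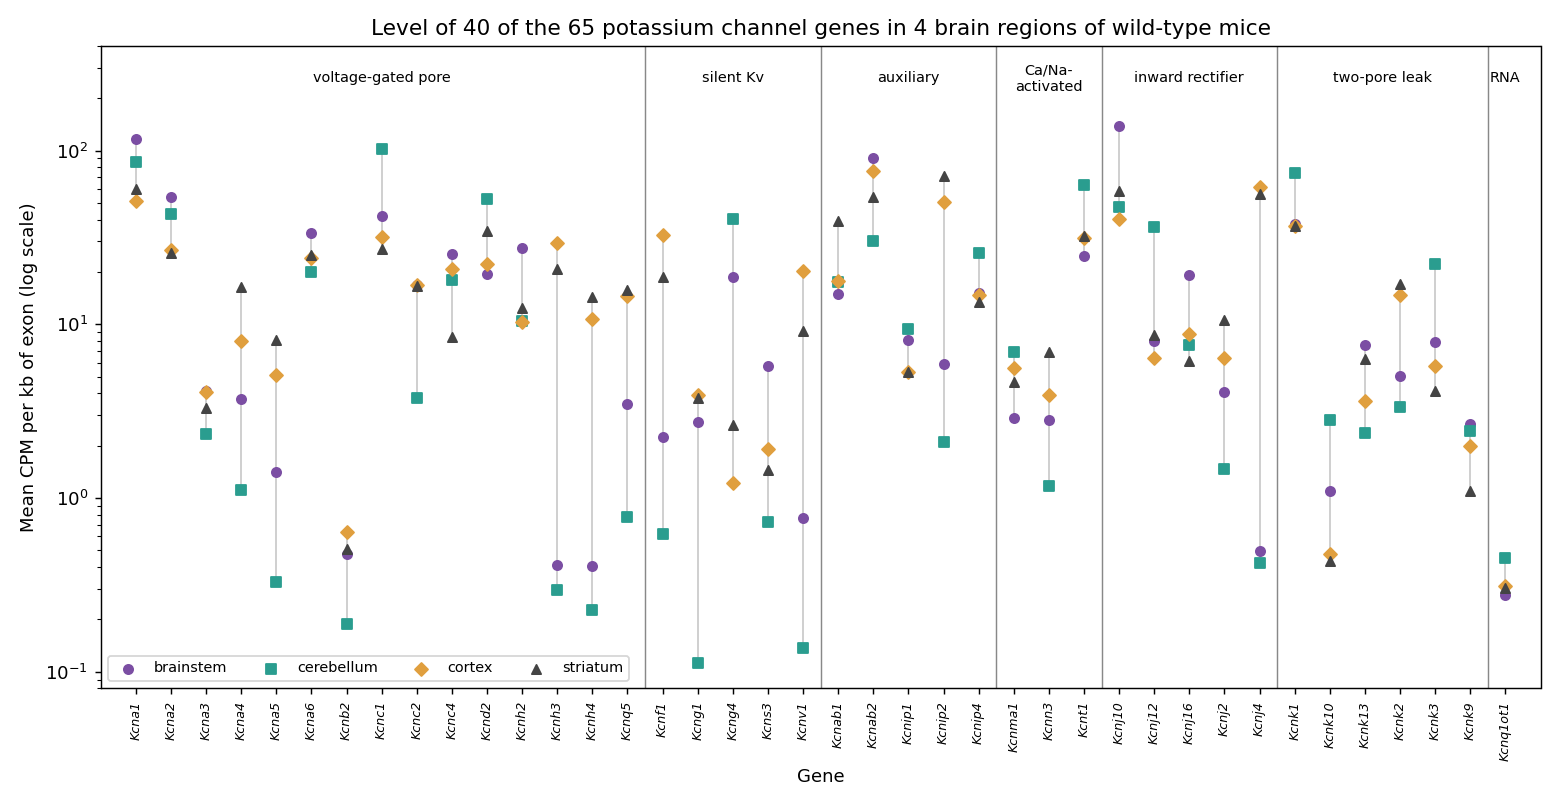
Mean level of the 40 potassium channel genes named in the text in wild-type mice (vertical axis, CPM per kb of exon on a log scale) by gene and class (horizontal axis). Symbols mark the 4 regions (n = 7 or 8 libraries each) and the grey line joins the lowest and highest region. Kcnj4, Kcnh3, Kcnh4, Kcnf1 and Kcnv1 have cortex and striatum far above the other regions, and Kcng4, Kcnc1 and Kcnj12 have cerebellum on top.

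The Kv1 subunits line axons and are abundant in fibre tracts. Kcna1 (Kv1.1) was among the highest members in every region, with 116 ± 29.3 CPM per kb in brainstem, 86.2 ± 12.6 in cerebellum, 51.5 ± 19.7 in cortex and 59.8 ± 14.9 in striatum. Kcna2 (Kv1.2) was also highest in brainstem and then cerebellum, with 54.1 ± 6.41 and 43.3 ± 5.5, and was 26.7 ± 6.47 in cortex and 25.6 ± 9.66 in striatum. Kcna4 (Kv1.4), an A-type subunit, ran the other way: it was 16.3 ± 5.43 in striatum, 8.04 ± 0.983 in cortex, 3.71 ± 0.85 in brainstem and 1.1 ± 0.51 in cerebellum, and every wild-type striatal library lay above every library of the other regions. Kcna5 (Kv1.5) was likewise highest in striatum, at 8.14 ± 3.1 against 0.326 ± 0.178 in cerebellum.

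Kv3 channels repolarise fast-firing neurons. Kcnc1 (Kv3.1) was 102 ± 15.9 CPM per kb in cerebellum, 41.98 ± 7.67 in brainstem, 31.6 ± 5.67 in cortex and 26.98 ± 11.3 in striatum. Against the mean of the other regions it was higher in cerebellum by 1.64 ± 0.13 on the log2 scale (estimate ± SE, FDR = 4.4e-43). Kcnc2 (Kv3.2) had its lowest level there, with 3.75 ± 2.44 in cerebellum against 16.8 ± 2.99 in cortex and 16.8 ± 4.76 in brainstem.

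Kcnq5 (Kv7.5), of the M current family, was 15.8 ± 5.57 CPM per kb in striatum and 0.777 ± 0.304 in cerebellum. Kcnd2 (Kv4.2), an A-type pore subunit of dendrites, was highest in cerebellum, at 52.2 ± 9.57, then striatum at 34.4 ± 7.25, cortex at 22.3 ± 1.89 and brainstem at 19.4 ± 1.54.

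The ELK channels of the EAG family and Kcnj4 differed sharply between forebrain and hindbrain. Kcnh3 (Kv12.2) was 29.3 ± 9.58 CPM per kb in cortex and 20.9 ± 10.9 in striatum, but 0.413 ± 0.124 in brainstem and 0.294 ± 0.062 in cerebellum. Kcnh4 (Kv12.3) was 10.8 ± 4.22 in cortex and 14.3 ± 7.47 in striatum, against 0.405 ± 0.0842 and 0.225 ± 0.0845. Kcnj4 (Kir2.3), a strong inward rectifier, was 61.3 ± 16.4 and 56.1 ± 27.9 in the forebrain regions and 0.493 ± 0.589 and 0.421 ± 0.209 in the hindbrain regions. Kcnj4 led the higher genes of both forebrain regions, with a log2 difference from the mean of the other regions of 4.75 ± 0.37 (FDR = 2.4e-43) for cortex and 4.58 ± 0.35 (FDR = 5.7e-41) for striatum. By the same measure it was the member furthest below the others in brainstem (-4.50 ± 0.36, FDR = 1.7e-20), ahead of Kcnh3 (-3.77 ± 0.21) and Kcnh4 (-3.01 ± 0.21). Kcnh2 (Kv11.1, ERG1), of the same EAG family, had its highest level in brainstem instead (27.4 ± 5.32 against 10.3 ± 2.46 in cortex, log2 1.32 ± 0.13, FDR = 1.8e-25).

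The silent subunits, which modify Kv2 channels, split between regions. Kcng4 (Kv6.4) was 40.5 ± 7.29 CPM per kb in cerebellum and 18.6 ± 4.83 in brainstem, but 1.23 ± 0.881 in cortex and 2.65 ± 3.76 in striatum, and it had the largest log2 difference upwards in cerebellum (3.37 ± 0.44, FDR = 5.5e-17). The striatal value rests on few libraries: wild-type mice 7267058 and 7267059, the libraries with the most thalamic marker RNA, held 24.5 and 39.9 CPM, and the other wild-type striatal libraries held 0.982 to 4.48 CPM. Kcnf1 (Kv5.1) and Kcnv1 (Kv8.1) were forebrain genes, at 32.8 ± 7.63 and 20.2 ± 7.29 in cortex against 0.616 ± 0.263 and 0.138 ± 0.106 in cerebellum. Kcnv1 showed the largest log2 difference downwards in cerebellum (-5.23 ± 0.33, FDR = 1.7e-29), followed by Kcng1 (-4.92 ± 0.41, FDR = 4e-18). Kcns3 (Kv9.3) was highest in brainstem, at 5.74 ± 1.92 against 0.728 ± 0.299 in cerebellum (log2 2.18 ± 0.30 for brainstem, FDR = 3.7e-14).

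The auxiliary subunits differed in the region of their highest level. Kcnip2 (KChIP2), a calcium-binding partner of Kv4 pores, was 71.3 ± 29.9 CPM per kb in striatum and 50.9 ± 12.8 in cortex against 5.87 ± 2.23 in brainstem and 2.09 ± 1.38 in cerebellum. Kcnip4 (KChIP4) was highest in cerebellum, at 25.7 ± 2.18 against 13.4 ± 4.21 in striatum. Kcnab2 (Kv beta 2), which binds Kv1 pores, was 90.5 ± 12.8 in brainstem, 76.4 ± 21.3 in cortex, 54.3 ± 14.3 in striatum and 30.1 ± 4.74 in cerebellum, while Kcnab1 (Kv beta 1) was highest in striatum at 39.3 ± 13.1 and between 14.9 and 17.7 on average elsewhere.

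Of the calcium- and sodium-activated channels, Kcnt1 (Slack), a sodium-activated channel, was the most abundant, with 63.6 ± 10.2 CPM per kb in cerebellum and 24.8 ± 3.06 to 32.3 ± 8.32 elsewhere. Kcnn3 (SK3), a small-conductance calcium-activated channel, was 6.92 ± 0.816 in striatum and 1.17 ± 0.134 in cerebellum. Kcnma1, the pore of the BK channel, stayed between 2.89 in brainstem and 6.92 in cerebellum on average.

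Inward rectifiers and leak channels completed the pattern. Kcnj10 (Kir4.1), the glial potassium uptake channel, was the highest of all potassium channel genes in brainstem at 138 ± 32.7 CPM per kb, with 58.8 ± 22.5 in striatum, 47.5 ± 1.74 in cerebellum and 40.2 ± 5.53 in cortex. Its partner Kcnj16 (Kir5.1) was likewise highest in brainstem, at 19.3 ± 3.23, but lowest in striatum, at 6.16 ± 2.18 against 7.57 ± 1.08 in cerebellum and 8.75 ± 2.36 in cortex. Brainstem exceeded the mean of the other regions by 1.51 ± 0.12 for Kcnj10 (log2, FDR = 7e-40) and by 1.38 ± 0.14 for Kcnj16 (FDR = 1.7e-23). Kcnj12 (Kir2.2) was a cerebellar gene, at 36.5 ± 7.2 against 6.38 ± 0.894 in cortex (log2 2.26 ± 0.12, FDR = 6e-88). Among two-pore channels, Kcnk1 (TWIK-1) had the highest level in every region and reached 74.6 ± 8.36 in cerebellum, where Kcnk3 (TASK-1) and Kcnk10 (TREK-2) also exceeded the other regions (log2 1.96 ± 0.14, FDR = 1.3e-49, and 2.20 ± 0.12, FDR = 6.6e-84). Kcnk2 (TREK-1) was 17.04 ± 6.9 in striatum and 3.36 ± 0.759 in cerebellum. Kcnq1ot1 was near the bottom throughout, from 0.275 to 0.453 on average.

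Tested against the mean of the other 3 regions, 25 potassium channel genes were higher and 24 lower in brainstem (34.1% and 36% of all genes were called in those directions), 20 higher and 36 lower in cerebellum (35.3% and 38.4%), 33 higher and 16 lower in cortex (30.6% and 29%), and 24 higher and 21 lower in striatum (27.8% and 27.2%). Against these backgrounds, the shares of members were larger for higher calls in cortex (50.8%) and for lower calls in cerebellum (55.4%), and nearer to the background elsewhere. By class, 6 of 7 silent subunits and 16 of 25 voltage-gated pores were lower in cerebellum, and of 9 two-pore channels 5 were higher and 4 lower there. In the SCA3 mice, which did not enter these contrasts, 0 of the genes called in any region had the opposite sign. In single libraries, 8 genes lay above every library of the other regions in cerebellum (Kcnc1, Kcng4, Kcnip4, Kcnj12, Kcnk1, Kcnk10, Kcnk3 and Kcnt1; 11.2% of all genes did so), 3 in striatum (Kcna4, Kcnab1 and Kcnn3; 0.234%), 1 in brainstem (Kcnj16; 2.65%) and 0 in cortex (0.38%).

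Between genotypes, the potassium channel gene that stood out was Kcnk13, which was lower in SCA3 than in wild-type mice in brainstem, cerebellum and striatum. In wild-type brainstem it lay at 15.6 to 28.7 CPM with a median of 25.5, and in SCA3 brainstem at 10.1 to 14.1 CPM with a median of 11.7, so that the genotypes did not overlap. The log2 fold change was -0.97 ± 0.15, FDR = 1.9e-07 (estimate ± SE). In cerebellum it was 4.91 to 9.9 CPM with a median of 7.19 in wild-type and 3.13 to 5.1 CPM with a median of 4.64 in SCA3 mice, where 1 wild-type library, that of mouse 9083371, lay within the SCA3 range (-0.73 ± 0.16, FDR = 0.01).

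In striatum, wild-type libraries held Kcnk13 at 11.98 to 29.9 CPM with a median of 20.04, and the SCA3 libraries held 9.79, 11.1, 11.3, 12.1 and 12.1 CPM. Only the lowest wild-type library, of mouse 7267055 at 11.98 CPM, reached the SCA3 range (-0.81 ± 0.16, FDR = 0.00025). In cortex the values were 8.41 to 13.1 CPM with a median of 10.9 in wild-type and 6.57 to 9.75 CPM with a median of 8.42 in SCA3 mice, with 3 SCA3 libraries above the lowest wild-type library, and the difference did not pass the test (-0.44 ± 0.16, FDR = 0.61). The test that joins all regions called Kcnk13 (FDR = 3e-16), and the test of region dependence did not (FDR = 0.68), so no difference in the size of the change between regions was shown.

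**Figure D2:**
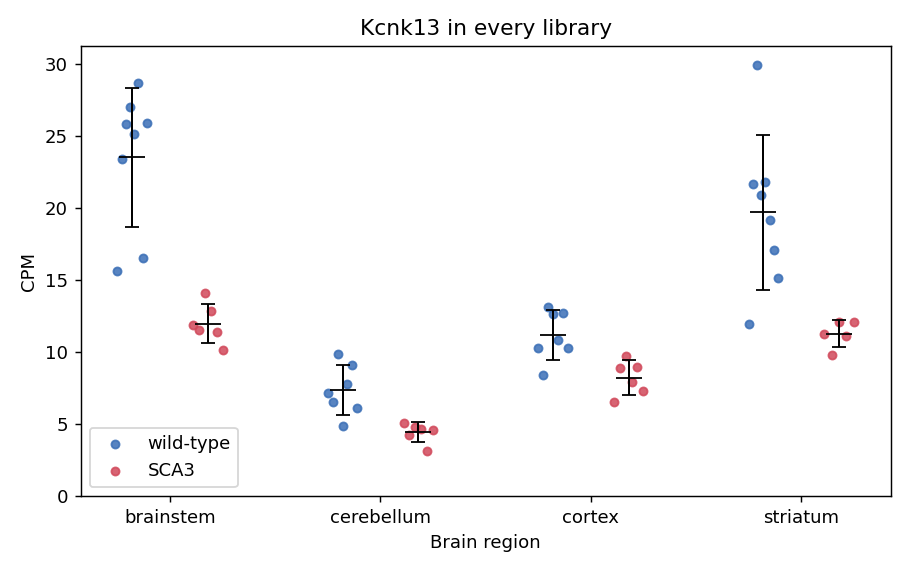
Kcnk13 in every library (vertical axis, CPM, from 0) by brain region (horizontal axis) for wild-type (blue) and SCA3 mice (red). The black mark and bar are the mean and SD of each group. SCA3 libraries of brainstem, at 10.1 to 14.1, sit below all wild-type libraries, at 15.6 to 28.7.

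Glial markers were also lower in SCA3 brainstem, where 1.92% of all genes were called. All 10 mature oligodendrocyte, 8 astrocyte and 9 microglia markers had lower estimates. Their median log2 fold changes were -0.39, -0.40 and -0.14, against 0.00 for all genes. These are bulk samples, in which fewer cells of a type and less RNA per cell cannot be told apart. The summed CPM of 10 mature oligodendrocyte markers was 10346 to 21461 in wild-type and 9435 to 15944 in SCA3 brainstem, and 2 of them were called lower, Aspa among them. Of 8 astrocyte markers 3 were called lower (Gja1, Slc1a2 and Fgfr3), with sums of 3090.4 to 7195 against 2656 to 3992. Of 9 microglia markers 1 was called lower, P2ry12, with sums of 309 to 586 against 346 to 439.

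In a fit of the brainstem libraries alone the log2 fold change of Kcnk13 was -0.98 (FDR = 1.2e-08). With the marker score of each of these cell types added to that fit as a covariate it was -0.64 (FDR = 3.4e-08) for oligodendrocytes, -0.66 (FDR = 0.0031) for astrocytes and -0.84 (FDR = 8.8e-10) for microglia. Without the 4 brainstem libraries with the most thalamic marker RNA it was -1.05 (FDR = 1.2e-06), and with RIN as a covariate -1.01 (FDR = 1.8e-07). In striatum it was -0.80 (FDR = 0.0068) in a fit of the striatal libraries alone. Adding the astrocyte or projection neuron score to that fit ended the call, at -0.64 (FDR = 0.14) and -0.73 (FDR = 0.084), while the other scores, and the fit of all regions without the 2 libraries with the most thalamic marker RNA, kept the call, the latter at -0.65 (FDR = 0.0071). In cerebellum limma-voom did not call it, at -0.72 (FDR = 0.66) with the mouse as a block and -0.73 (FDR = 0.6) without, and its FDR rose above the threshold without mouse 7267056, 9082857 or 9083514 (0.064, 0.14 and 0.14).

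**Figure D3:**
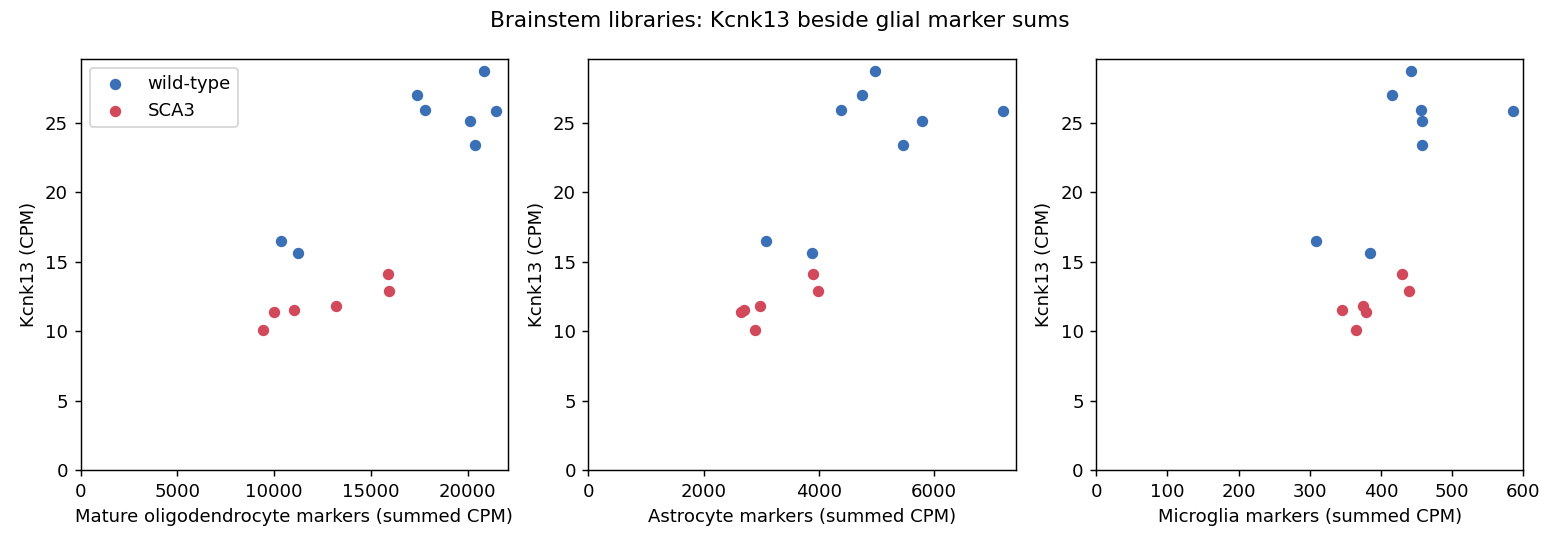
Kcnk13 in each brainstem library (vertical axes, CPM, from 0) against the summed CPM of mature oligodendrocyte, astrocyte and microglia markers (horizontal axes, from 0), for 8 wild-type (blue) and 6 SCA3 libraries (red). The wild-type libraries with low glial marker sums hold the lowest wild-type Kcnk13, 15.6 and 16.5 CPM, and are still above the SCA3 libraries.

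In brainstem 2 potassium channel genes were called, both lower in SCA3 mice (3.08% of members, against 1.92% of all genes called in either direction). The second, after Kcnk13, was Kcnb2 (Kv2.2), a delayed rectifier. It lay at 4.43 to 9.76 CPM with a median of 6.97 in wild-type and 3.6 to 7.5 CPM with a median of 4.22 in SCA3 brainstem, and the highest SCA3 library, of mouse 7267056, overlapped the wild-type range (-0.65 ± 0.19, FDR = 0.043). This call was close to the threshold: the quasi-likelihood test gave -0.65 (FDR = 0.067), the RIN covariate -0.66 (FDR = 0.071), and the fit without the 4 libraries with the most thalamic marker RNA -0.57 (FDR = 0.49). Limma-voom with the mouse as a block did not call Kcnb2 either, at -0.64 (FDR = 0.074).

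Over all 65 genes, 43 had a lower and 22 a higher estimate in SCA3 brainstem, with a median log2 fold change of -0.09 against 0.00 for all genes. At an unadjusted p under 0.05, 7 were lower and 0 higher, which is 10.8% and 0% of members against 7.48% and 5.78% of all genes. These included the glial pair Kcnj10, at 430.2 to 915 CPM with a median of 798 in wild-type and 462 to 683 CPM with a median of 556 in SCA3 mice (-0.40 ± 0.15, FDR = 0.19), and Kcnj16, at 57.9 to 88.3 CPM with a median of 79.8 and 44.6 to 68.8 CPM with a median of 57.2 (-0.42 ± 0.19, FDR = 0.29). Neither passed the adjusted threshold here, while the fit of the brainstem libraries alone called Kcnj16 and Kcna6, without and with the thalamic score.

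In striatum 7 potassium channel genes were called, all lower in SCA3 mice. This is 10.8% of the members, against 7.54% of all genes called in either direction and 5.47% called lower. Beside Kcnk13 they were Kcna6, Kcnc4, Kcnip1, Kcnj10, Kcnj16 and Kcnk9. The 65 genes had no common direction, with 34 higher and 31 lower estimates and a median log2 fold change of 0.03 against -0.00 for all genes.

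Kcnip1 (KChIP1), which binds Kv4 pores and is known from interneurons, had the largest change among those called. It lay at 9.12 to 49.3 CPM with a median of 36.8 in wild-type striatum, and the SCA3 libraries held 9.56, 10.4, 11.5, 19.5 and 22.6 CPM (-1.16 ± 0.23, FDR = 0.00048). Of the wild-type libraries, 6 were above every SCA3 library and those of mice 9083371 and 9082857, at 9.12 and 11.4 CPM, were at the level of the SCA3 libraries. With libraries of RIN of at least 7 alone the call was lost, at -0.89 (FDR = 0.062), as were those of all others but Kcna6 and Kcnk13. The libraries of mice 9083371 and 9082857 were also the wild-type libraries with the highest sums of projection neuron markers, at 10181 and 10484 CPM.

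The glial inward rectifiers Kcnj16 and Kcnj10 were both called lower in the main fit. Kcnj16 lay at 9.84 to 32.7 CPM with a median of 27.4 in wild-type striatum against 9.71, 11.5, 12.5, 16.7 and 22.1 CPM in the SCA3 libraries (-0.74 ± 0.20, FDR = 0.0089), and Kcnj10 at 233 to 582 CPM with a median of 272 against 201, 205, 207, 214 and 290.3 CPM (-0.51 ± 0.16, FDR = 0.035). For Kcnj10, wild-type mice 7267058 and 7267059 held the 2 highest values, 414 and 582 CPM, and without them the log2 fold change was -0.21 (FDR = 0.5). Without them Kcnj16 was -0.62 (FDR = 0.086). In a fit of the striatal libraries alone Kcnj10 was -0.51 (FDR = 0.29) and Kcnj16 -0.74 (FDR = 0.24), and with the astrocyte score added to it 0.07 (FDR = 0.88) and -0.16 (FDR = 0.89). With the mouse as a block in limma-voom neither passed, at -0.46 (FDR = 0.073) and -0.68 (FDR = 0.055). Of 8 astrocyte markers 4 were called lower in striatum and 0 higher, and of 10 mature oligodendrocyte markers 4 were lower and 0 higher. All 8 and all 10 had lower estimates there, with median log2 fold changes of -0.34 and -0.39. Their sums were 3821 to 5492 and 6576 to 19128 CPM in wild-type against 3959 to 4419.8 and 6070.4 to 9234 in SCA3 libraries. Without the 2 wild-type libraries 0 of these markers were called by edgeR, with 4 of each list lower at an unadjusted p under 0.05.

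Kcna6 (Kv1.6), an axonal pore subunit, lay at 113 to 228 CPM with a median of 137 in wild-type and at 90.8, 91.4, 103, 124 and 130.1 CPM in SCA3 striatum (-0.46 ± 0.10, FDR = 0.001). An antisense transcript that is not in the table covers 39.6% of its exon bases, so its reads cannot be told from those of that transcript. Without wild-type mice 7267058 and 7267059 the difference was -0.28 (FDR = 0.034). Kcnc4 (Kv3.4) lay at 14.4 to 44.8 CPM with a median of 32.4 against 11.9, 11.95, 14.1, 24.2 and 35.7 CPM (-0.65 ± 0.21, FDR = 0.034), and Kcnk9 (TASK-3), an acid-sensitive leak channel, at 7.12 to 20.5 CPM with a median of 13.8 against 5.5, 6.68, 7.43, 9.31 and 13.97 CPM (-0.66 ± 0.19, FDR = 0.019). Both overlapped widely between genotypes, and both missed the threshold without those 2 libraries (-0.59 (FDR = 0.15) and -0.66 (FDR = 0.057)). With the mouse as a block Kcnk9 missed it too, at -0.65 (FDR = 0.077).

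**Figure D4:**
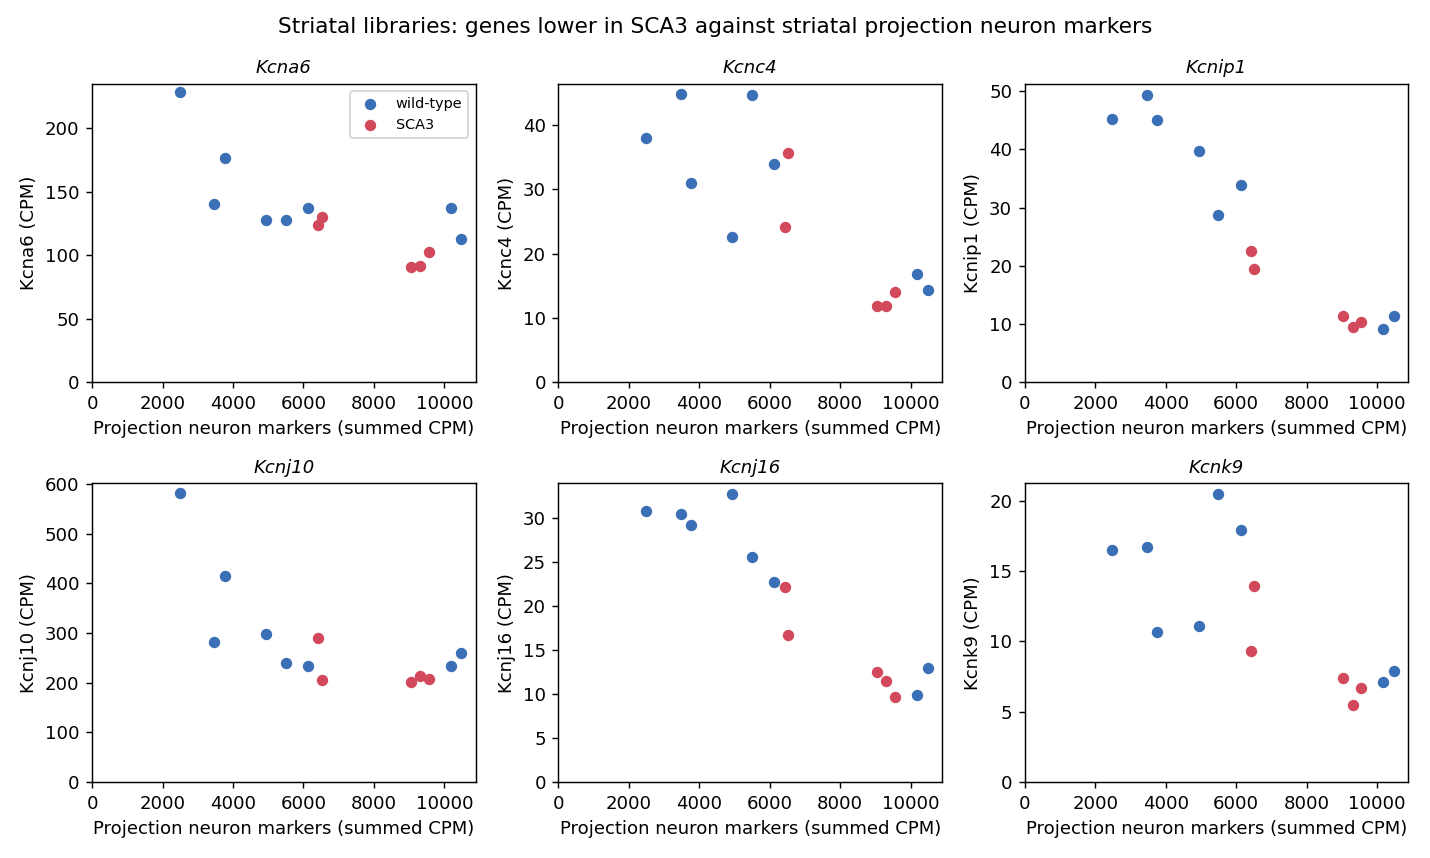
CPM of the 6 other genes called in striatum (vertical axes, from 0) against the summed CPM of striatal projection neuron markers (horizontal axes, from 0) in each striatal library, 8 wild-type (blue) and 5 SCA3 (red). Libraries of both genotypes with high marker sums hold low levels of these genes: the wild-type libraries at 10181 and 10484 CPM lie at 9.12 and 11.4 CPM of Kcnip1, beside the SCA3 libraries.

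Most calls in striatum depended on the fit. In a fit of the striatal libraries alone, with their own estimate of the spread, Kcnk13 was the 1 gene called, and the others kept their size but not the call, such as Kcnip1 at -1.16 (FDR = 0.15) and Kcna6 at -0.46 (FDR = 0.18). With the projection neuron score added to that fit the log2 fold changes were smaller, with Kcnip1 at -0.27 (FDR = 1), Kcnj16 at -0.17 (FDR = 1) and Kcna6 at -0.21 (FDR = 1), whereas Kcnk13 was -0.73 (FDR = 0.084). In the fit of all regions without the striatal libraries of wild-type mice 7267058 and 7267059, 3 were called (Kcna6, Kcnip1 and Kcnk13). This is 4.62% of members, against 2.34% of all genes called in that fit. The part of tissue composition in these differences was not tested beyond these values.

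Several striatal members lay just outside the threshold. Kcng4 had the largest estimate, -1.81 ± 0.58, FDR = 0.0504, and its wild-type values of 0.982 to 39.9 CPM include the libraries of mice 7267058 and 7267059, while the SCA3 values were 0.443, 0.819, 1.03, 1.94 and 10.2 CPM. Without those libraries it was 0.10 (FDR = 0.96). Kcnd2 (0.32 ± 0.11, FDR = 0.0511) and Kcnj2 (Kir2.1, 0.63 ± 0.23, FDR = 0.061) had higher estimates in SCA3 mice. Both were called with the mouse as a block, at 0.36 (FDR = 0.049) and 0.70 (FDR = 0.031), and not without mice 7267058 and 7267059, at 0.30 (FDR = 0.17) and 0.45 (FDR = 0.34). Kcnk10, Kcnc1, Kcnh2 and Kcnk3 had lower estimates between -0.54 and -0.49, and between -0.33 and -0.21 without those mice. At an unadjusted p under 0.05, 18 genes were lower and 7 higher, which is 27.7% and 10.8% of members against 13.8% and 9.44% of all genes. Without the 2 libraries 7 of the 65 members were lower and 6 higher, against 1065 lower and 732 higher of all 12372 genes.

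**Figure D5:**
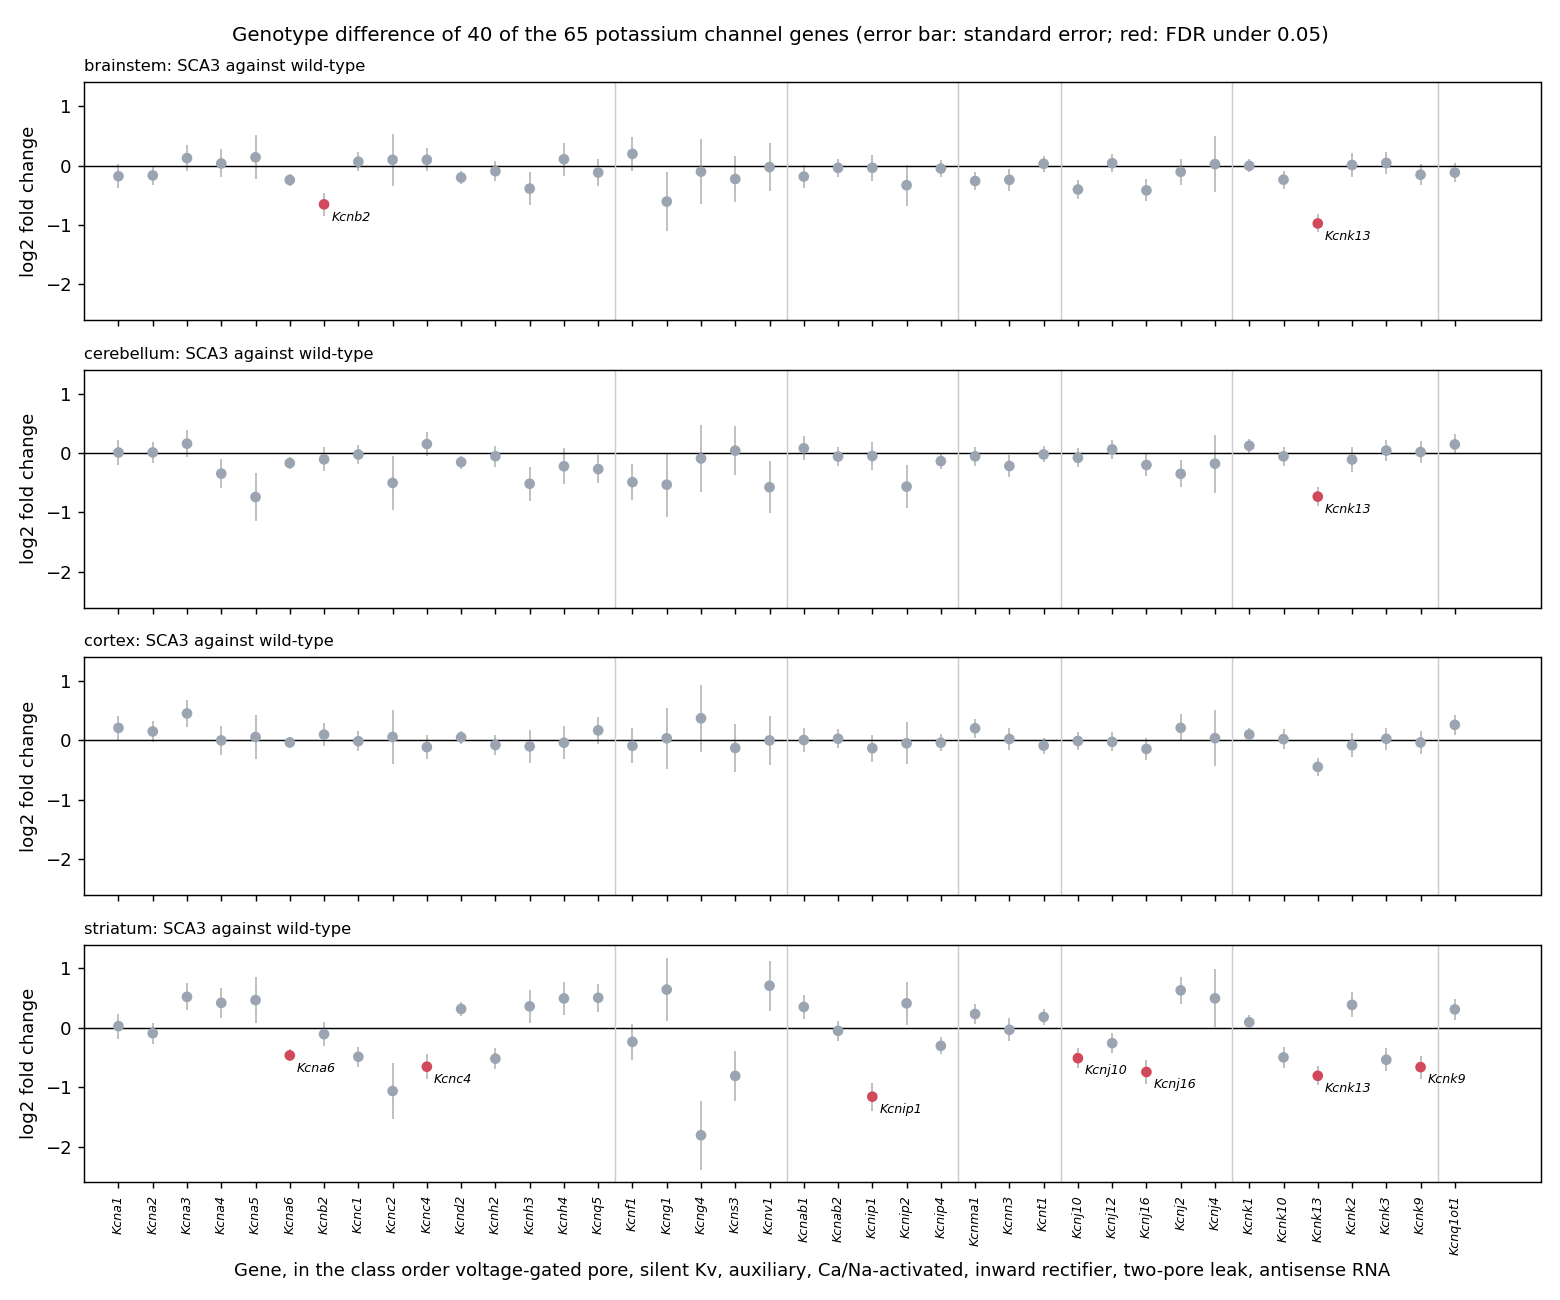
Log2 fold change of SCA3 against wild-type (vertical axes) for the same 40 potassium channel genes (horizontal axis, by class) in each region. Bars are standard errors, and genes with an FDR under 0.05 are red and named: 2 in brainstem, 1 in cerebellum, 0 in cortex and 7 in striatum, as among all 65.

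In cerebellum Kcnk13 was the 1 member called (1.54%, against 0.0647% of all genes), and it was also the 1 member with an unadjusted p under 0.05 (1.66% of all genes). The median log2 fold change of the 65 genes was -0.06 against -0.00 for all genes. In cortex edgeR called 0 members (0.154% of all genes), and 2 (3.08%, against 4.07% of all genes) had an unadjusted p under 0.05: Kcnk13 and Kcna3 (Kv1.3), at 0.45 ± 0.22, FDR = 1. DESeq2 and limma-voom also called 0 there. Kcnc1 did not pass the test in cerebellum, at 969 ± 150.2 CPM in wild-type (SD, n = 7) and 952 ± 135 in SCA3 mice (n = 6; -0.03 ± 0.16, FDR = 1).

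Joined over the regions, 4 members were called (6.15%, against 4.73% of all genes): Kcnk13, Kcna6 (FDR = 0.0006), Kcnip1 (0.0064) and Kcnj16 (0.016). Kcnk13 and Kcna6 remained called under each alternative run for this test, while Kcnip1 and Kcnj16 were lost under several, among them limma-voom with the mouse as a block (FDR = 0.2 for both) and the fit without the 2 striatal libraries with the most thalamic marker RNA. Kcnj16 was also lost under the quasi-likelihood test and without mouse 7267058 or 7267059. Kcna6 had lower estimates in SCA3 mice in every region, at -0.24 ± 0.10, -0.17 ± 0.10, -0.03 ± 0.10 and -0.46 ± 0.10 in brainstem, cerebellum, cortex and striatum, as did Kcnj16, at -0.42 ± 0.19, -0.20 ± 0.19, -0.14 ± 0.19 and -0.74 ± 0.20. Kcnip1 had its difference in striatum, with -0.04 ± 0.22, -0.05 ± 0.23 and -0.13 ± 0.23 in the other regions. By the test of that difference, the effect of genotype depended on region for 0 members in edgeR, DESeq2 and limma-voom (0.218% of all genes in edgeR), with 7 at an unadjusted p under 0.05 (10.8%, against 9.09% of all genes). The smallest FDR of that test was 0.14, for Kcnip1.

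Genes that work with potassium channels were called in brainstem and striatum, where 1.92% and 7.54% of all genes were called. Some of the 13 genes listed for the Kv1 complex and the juxtaparanode anchor Kv1 channels beside the node of Ranvier. Of this list Lgi4 was lower in brainstem (log2 fold change -0.61, FDR = 0.00011) and in striatum (-0.43, FDR = 0.015). Dlg1 and Dlg2, scaffold proteins, were higher in striatum (0.33 and 0.26, FDR = 0.0072 and 0.044). Of 4 HCN channels, which carry the pacemaker current, Hcn4 was lower in striatum (-1.35, FDR = 0.0089). Of 10 genes of the sodium pump and of chloride cotransport, 1 was lower in brainstem (Atp1b3) and 4 were lower in striatum, among them Atp1b1, Atp1b2 and Atp1b3. Without wild-type mice 7267058 and 7267059, where 2.34% of all genes were called in striatum, Atp1b3 was the 1 gene of these lists still called there (-0.26, FDR = 0.046). Hcn4 was then -0.77 (FDR = 0.22), Lgi4 -0.38 (FDR = 0.097) and Dlg1 0.26 (FDR = 0.087). Of 8 auxiliary proteins outside the Kcn symbols, such as Dpp6 and Dpp10, edgeR called 0 in any region, with 5 gene and region pairs of 32 at an unadjusted p under 0.05, against 10.6% of such pairs over all genes. None of these lists had a call in cerebellum or cortex.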

How the data were processed

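The deposited table holds unnormalised counts of reads for each gene and library, made by the authors. Per their methods, poly-A libraries without strand information were trimmed with Cutadapt 1.10, aligned to GRCm38 with STAR 2.3.0e keeping uniquely aligned reads, and counted on RefSeq genes with HTSeq 0.6.1, and genes averaging above 4 CPM were kept. A read on exons shared by genes of both strands therefore could not be assigned by strand.

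All 53 libraries entered 1 negative binomial fit in edgeR 4.0.16 (R 4.3.3) with 8 groups of region and genotype and TMM normalisation, as in the study. Likelihood ratio tests compared SCA3 with wild-type in each region, over all regions together, and between regions (3 interactions), and each wild-type region with the mean of the other 3. Benjamini-Hochberg adjustment ran over all 12372 genes, and an FDR under 0.05 was called. Depth of 31.7 to 76.7 M counts sets the precision of each value, together with the spread between mice. Exon lengths for CPM per kb are from GENCODE M21. The striatal genotype test was also run on simulated counts, drawn independently for each library with the fitted spread of each gene. Such counts hold no pairing of libraries by mouse, no shared dissection differences and no separate spread for striatum, so these were not checked. Marker scores are mean log2 CPM with a prior count of 2.

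The alternatives tried were DESeq2 1.42.0, the quasi-likelihood F test of edgeR, limma-voom (limma 3.58.1) with or without a block for the mouse, RLE size factors, at least 10 counts in every library, each region alone without or with a marker score as a covariate, RIN as a covariate, RIN of at least 7, and leaving out each mouse. The glial and projection neuron scores, and leaving out the libraries with the most thalamic marker RNA, were chosen after seeing the data. Regions of 1 mouse share its number, so the mouse pairs the libraries across regions; the correlation estimated within mice was 0.14.

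The members, classes and marker lists were chosen with earlier results of these data known. Named were the members called in a genotype test, and for regional levels the 5 highest, the 5 most above and the 3 most below the other regions, the highest of each sub-family, and other members of a sub-family. Some of the genes this rule names are not reported here.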

Additional observations from a re-analysis of the deposited data

Results flagged for a closer look

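In 20 groups of libraries behind the called potassium channel genes, the gap between the most extreme library and the next was compared with the range of its group by Dixon's criterion, which marks about 1 group in 20 by chance, and 2 libraries stood apart. Kcnb2 in SCA3 brainstem was 7.50 CPM in mouse 7267056, while the other 5 SCA3 libraries held 3.6 to 4.28 CPM. Kcnj10 in SCA3 striatum was 290.3 CPM in mouse 9082853, while the other 4 SCA3 libraries held 201 to 214 CPM. That striatal library also held the highest thalamic marker sum of the SCA3 striata, 311 CPM, against 110 to 132 CPM in the others.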

How the results depend on the processing

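Regional differences in wild-type mice kept their counts within 1.5 times under every alternative run. They were 49, 56, 49 and 45 genes called in brainstem, cerebellum, cortex and striatum, and 49, 58, 50 and 47 with the mouse as a block. Kcnk13 in brainstem was called under all 24 planned and 4 added alternatives, with log2 fold changes of -1.05 to -0.64. In brainstem the count of 2 became 1 under the quasi-likelihood test, limma-voom with and without the block, the RIN covariate, and without the libraries with the most thalamic marker RNA. In fits of the brainstem libraries alone it was 3 without a score, 5 with the thalamic, 10 with the oligodendrocyte, 7 with the astrocyte and 4 with the microglia score. It was 1 to 3 with a mouse left out. Kcnb2 was called in 7 of 24 planned and 1 of 4 added alternatives, and 11 of the 14 mice left out in turn ended its call. In cerebellum the count of 1 became 0 under limma-voom with and without the block and was 0 to 1 with a mouse left out.

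In striatum the count of 7 became 12 under DESeq2, 4 under limma-voom, 6 with the block (Kcnj10, Kcnj16 and Kcnk9 lost, Kcnd2 and Kcnj2 gained), and 2 with RIN of at least 7. In fits of the striatal libraries alone it was 1 without a score, 1 with the thalamic, oligodendrocyte or microglia score, and 0 with the astrocyte or projection neuron score. It was 3 without the libraries with the most thalamic marker RNA (4.62% of members, against 2.34% of all genes). With a mouse left out it was 3 to 18. It was 3 without SCA3 mouse 7267054, 7267056 or 9083515, 4 without wild-type mouse 7267059, 12 without wild-type mouse 7267055 or SCA3 mouse 9083514, 16 without SCA3 mouse 9082853, and 17 and 18 without wild-type mice 9083371 and 9082857. The cause was not tested. Over all regions the count of 4 became 2 under limma-voom with and without the block and without the 2 striatal libraries with the most thalamic marker RNA. With a mouse left out it was 2 to 8, with 2 without mouse 7267054 or 9083515, 7 without 9082853 or 9083514, and 8 without 9083371. For region dependence the count of 0 was 0 to 2 with a mouse left out, with 1 without 9082853 or 9083371 and 2 without 9082857. In cortex it was 0 throughout.

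Among the genotype and regional values followed through the alternatives, which include those of every called member, signs turned for 6, of which Kcnj10 in striatum had been called. With the astrocyte score and the region alone Kcnj10 in striatum was 0.0693, Kcnj16 in cortex 0.12 and Kcnip1 in brainstem 0.10, and with the RIN covariate Kcnip1 in brainstem was 0.0478. Kcna6 in cortex was -0.0851 to 0.0081 with a mouse left out, with 0.0081 without 9083513 and 0.0009 without 9083514. Outside the values followed, other signs turned in striatum without the 2 libraries with the most thalamic marker RNA. Kcng4 went from -1.81 to 0.10 and Kcnc2 from -1.06 to 0.04, for example, and neither had been called. Members with few counts (down to 2 in a library) are imprecise.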

Other observations

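Kcnk13 lies on the same chromosome as mouse Atxn3 (chromosome 12), with the starts of the genes 1.96 Mb apart. Of the 40 other genes of the table that start within 5 Mb of Kcnk13, edgeR called 0 in brainstem, cerebellum or cortex between SCA3 and wild-type mice, 6 in striatum, where 7.54% of all genes were called (Spata7, Ccdc88c, Atxn3, Chga, Unc79 and Clmn) and 3 over all regions together, where 4.73% were called (Atxn3, Chga and Clmn). The median log2 fold change of these 40 genes was -0.05 in brainstem, 0.00 in cerebellum and cortex, and 0.02 in striatum. This window was looked at after the values of Kcnk13 were seen. The labels do not give the insertion site of the human ATXN3 transgene, so linkage of Kcnk13 to the transgene was not tested.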
